A study of Mus musculus with 34 samples.

Results

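The genes described here encode SR proteins, heterogeneous nuclear ribonucleoproteins (hnRNPs) and the SR-like proteins Tra2a and Tra2b. They were chosen by name: every gene called Srsf with a number, every gene whose name starts with Hnrnp, and the Tra2 pair, which gave 33 of the 52661 genes in the expression table (11 SR, 20 hnRNP and 2 Tra2). A single pseudogene name was left out. Of the 33, 32 were above 5 RPKM (reads per kilobase of transcript, scaled to library size) in vehicle-treated cells, as were 9397 genes in all, and Srsf12 was listed at 0.02 RPKM. The splicing table held 178 exons in 23 of these genes, of 160750 exons in all, and 149 introns in 22 of them, of 160022. A further 9 introns carried the name Srsf12 but lay on another chromosome and were left out.

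The cells were N2A (Neuro-2A), a mouse neuroblastoma line grown as a continuous culture, and all 34 libraries of polyA RNA came from it. Vehicle cultures received DMSO (3 libraries, A to C), and 27 compounds were each given for 24 h in a final 0.4% DMSO. The 4 inhibitors of histone deacetylases (HDACs), Vorinostat (SAHA), CI-994, BRD6688 and BRD4884, were sequenced as 2 libraries per compound, and the remaining 23 compounds as 1. Those others were kinase inhibitors (A-443654, NVP-AEW-541, Trametinib, Crenolanib, SCH-772984, GNF-5837 and MK-1775), the DNA methyltransferase inhibitor 5-azacytidine, and compounds from screening collections, including a ChemBridge compound known by its catalogue number. The labels give these 23 by plate position, and the names used here are those the study pairs with the positions. Doses differed between compounds. Of 11 markers of sympathetic neuroblasts, 9 were above 5 RPKM in DMSO, with Nefl and Nefm at 0.01 RPKM each, and none of 11 markers of fibroblast, immune, epithelial, endothelial or glial cells was. Exon-event reads summed to between 33489968 (Vorinostat A) and 75978448 (DMSO A) per library, where a read can count in several events.

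SR proteins bind exons through RNA recognition motifs and, through their serine- and arginine-rich tails, help recruit the spliceosome. Many hnRNPs bind silencer elements in exons and introns and oppose exon use, and several package nascent RNA. Genes of both families are known for poison exons, conserved cassette exons whose inclusion brings in an early stop codon. A transcript with an early stop well upstream of an exon junction is a target of nonsense-mediated decay (NMD). SR proteins and hnRNPs are known to limit their own levels by promoting such splicing or the retention of introns. The question the comparisons address is whether the use of low-inclusion exons and of introns in these genes moved with the level of their mRNA across the compounds.

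Inclusion is given as PSI, the percentage of reads that support use of an exon or, for an intron, its retention. Exons were taken as low-inclusion where their mean PSI in DMSO was below 50. Before any filter 38 exons were, of which 17, in 12 genes, passed the limits on coverage and on the balance of reads between an exon's junctions, and 13 passed them in the 3 DMSO libraries and in at least 20 compounds. Just inside the limit of 50 lay the 169 nt exon of Hnrnpr at 44.28 PSI, and just outside it a 147 nt exon of Hnrnpd at 53.36. The poison exons of Srsf3 and Tra2b are not analysed here.

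Sequences are shown for the exons on which the results below turn, and for Srsf6 and Srsf9 as further exons that carry a stop. They come from GENCODE vM21 transcripts on build GRCm38, matched to the splicing table by exon length and the lengths of the flanking introns, since that table uses coordinates of another build (mm9). Each is written 5′ to 3′, with the start or stop codon in capitals, from the start codon or up to the stop codon where there is one. The Hnrnpr sequence begins at exon base 13, the first base of the start codon, and the stops begin at exon base 57 in Hnrnpl, 150 in Srsf6 and 80 in Srsf9.
Hnrnpr 169 nt exon, chr4:136314087-136314255, plus strand: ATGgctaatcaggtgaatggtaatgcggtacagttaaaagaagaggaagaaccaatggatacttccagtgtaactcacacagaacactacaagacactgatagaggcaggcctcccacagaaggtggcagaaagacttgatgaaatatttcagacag
Hnrnpl 70 nt exon, chr7:28817335-28817404, plus strand: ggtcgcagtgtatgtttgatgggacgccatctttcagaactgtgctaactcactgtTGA
Srsf6 165 nt exon, chr2:162932815-162932979, plus strand: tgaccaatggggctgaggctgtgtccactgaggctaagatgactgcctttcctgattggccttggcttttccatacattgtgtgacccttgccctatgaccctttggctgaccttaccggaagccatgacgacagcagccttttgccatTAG
Srsf9 358 nt exon, chr5:115328347-115328704, plus strand: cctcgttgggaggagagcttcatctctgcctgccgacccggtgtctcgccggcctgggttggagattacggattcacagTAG
Hnrnpab 141 nt exon, chr11:51601750-51601890, minus strand: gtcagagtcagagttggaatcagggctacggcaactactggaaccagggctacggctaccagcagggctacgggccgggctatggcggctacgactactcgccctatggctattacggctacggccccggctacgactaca

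The annotation puts these exons in different roles. The Hnrnpl exon is exon 6 of 13 in an NMD transcript (Hnrnpl-213), with 7 exons after its TGA stop, and the Srsf9 exon carries a TAG stop in an NMD transcript (Srsf9-205). The Srsf6 exon holds a TAG stop near its 3′ end, with 1 exon after it in the transcript Srsf6-202, and the coding transcript Srsf6-203 skips it. Whether its inclusion leads to decay was not tested, so it is neither called a poison exon nor excluded as one. Stops also lay inside a 207 nt exon of Srsf4 (chr4:131884276-131884482, plus strand) and inside exons of 109 nt (chr3:158024123-158024231) and 117 nt (chr3:158023243-158023359) of Srsf11, on the minus strand. Exons of 71 nt in Hnrnpd (chr5:99962134-99962204), 51 nt in Hnrnpu (chr1:178323966-178324016) and 104 nt in Srsf2 (chr11:116851648-116851751), all on the minus strand, lay in the 3′ UTR of NMD transcripts, past the stop. The Hnrnpab exon was coding and a whole number of codons long.

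The Hnrnpr exon was not a poison exon by annotation. It holds the start codon of the coding transcripts Hnrnpr-207 and Hnrnpr-205, and the coding transcripts that skip it (Hnrnpr-201, Hnrnpr-203 and Hnrnpr-204) start at position 136317111 of chromosome 4, in their exon 3. The 127 nt exon of Hnrnph1 (chr11:50377314-50377440, plus strand) lay in the 5′ UTR, and a 36 nt exon of Hnrnpa2b1 (chr6:51467391-51467426, minus strand) was coding. No annotated exon matched the 73 nt and 226 nt exons of Hnrnpa2b1, the 107 nt exon of Srsf7, the 301 nt exon of Tra2a, the 184 nt exon of Srsf4, the 112 nt exon of Srsf11 or the 86 nt exon of Hnrnph3, so no role is given for them.

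In DMSO these genes were among the well expressed ones, with a wide order of levels. The RPKM values were the authors' merged values, 1 per condition, so they carry no spread between libraries and neighbours in the order cannot be tested. Hnrnpa1, a splicing repressor that shuttles between nucleus and cytoplasm, was highest at 2045.75 RPKM, followed by Hnrnpa2b1 at 1386.43 RPKM. Hnrnpk (802.99), Hnrnpf (746.84), Hnrnph1 (726.04), Hnrnpa3 (724.99), Hnrnpu (581.78) and Hnrnpab (574.97) came next in RPKM. The highest SR genes were Srsf5 (446.49 RPKM), Srsf3 (440.2 RPKM) and Srsf1 (362.02 RPKM), with Hnrnpc at 410.56 RPKM between them. Hnrnpd, an AU-rich element binding protein, stood at 346.06 RPKM, near Srsf2 (319.82), Srsf10 (282.78), Hnrnpl (255.79), Hnrnpm (243.67), Srsf7 (236.92) and Hnrnpdl (206.33). Tra2b (170.32 RPKM), Hnrnpr (167.49), Srsf6 (131.35), Tra2a (129.29), Hnrnph2 (119.24) and Srsf11 (104.49) were lower. Below 100 RPKM were Hnrnpa0 (82.63), Hnrnpul2 (75.67), Hnrnpll (66.8), Srsf9 (57.29), Hnrnph3 (56.5), Hnrnpul1 (47.89) and Srsf4 (39.15). Several hnRNP genes have processed pseudogenes of near-identical sequence, so a level is uncertain where reads could be shared between copies.

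**Figure D1:**
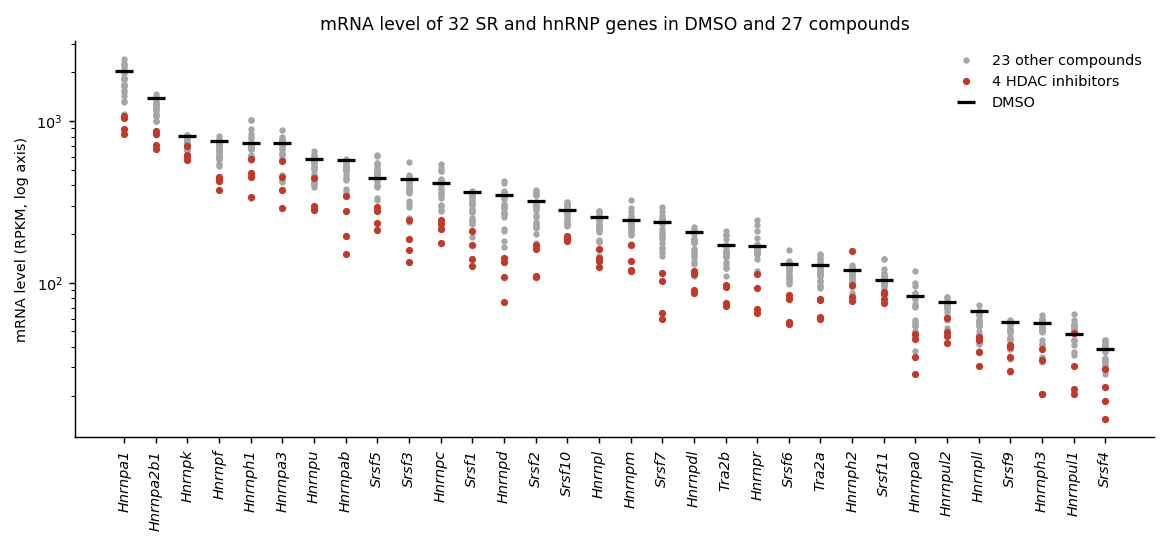
mRNA level (RPKM, log axis) of the 32 genes above 5 RPKM in DMSO, ordered by their DMSO level, 1 merged value per condition. Black bars are DMSO, red points the 4 HDAC inhibitors and grey points the 23 other compounds, and the order runs from Hnrnpa1 at 2045.75 RPKM to Srsf4 at 39.15 RPKM in DMSO.

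Across the compounds none of the 32 mRNAs above 5 RPKM in DMSO rose past 2-fold, and most falls came with the HDAC inhibitors. A change is the log2 ratio of RPKM to DMSO with 0.5 RPKM added to both values. Of 864 pairs of a gene and a compound, 0 were past 2-fold higher, beside 2.67% of all pairs in the table, and 56 (6.48%) were past 2-fold lower, beside 3.86% of all pairs. The falls lay mostly under the HDAC inhibitors, with 52 of their 128 pairs, against 4 of 736 pairs under the other compounds. The largest positive ratio among the 32 genes was 0.54 (log2), for Hnrnpr under T5985871.

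Under Vorinostat 21 genes were past 2-fold lower (22.5% of all genes were), under CI-994 24 (26.1%), under BRD6688 3 (6.75%) and under BRD4884 4 (4.42%). The median log2 ratio of the 32 genes was -1.19 under Vorinostat, -1.09 under CI-994, -0.65 under BRD6688 and -0.77 under BRD4884. Over all genes tested the median was -0.36, -0.44, -0.19 and -0.27 in the same order. Of the 32 genes, 29, 30, 31 and 32 lay below that median gene. With each ratio taken relative to the median gene of its compound, 20 falls were left (2.31% of the 864 pairs), close to the 2.25% of all pairs. All 20 lay under HDAC inhibitors, where the share of all genes on that scale was not counted. Of all pairs, 3.72% were past 2-fold higher on that scale.

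Hnrnpd was past 2-fold lower under 5 of the 27 compounds, more than any other of these genes. From 346.06 RPKM in DMSO it stood at 108.14 RPKM under Vorinostat, 76.05 under CI-994, 134.32 under BRD6688, 142.83 under BRD4884 and 166.23 under BTB13120, a compound under which 3.36% of all genes were past 2-fold lower. The log2 ratios were -1.67, -2.18, -1.36, -1.27 and -1.06, of which the first 4 stayed past 2-fold relative to the median gene. Its highest ratio was 0.29, under AW00693.

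Among the SR genes, Srsf7, which also acts in mRNA export, was at 59.29 RPKM under Vorinostat, 65.14 under CI-994, 102.2 under BRD6688 and 114.53 under BRD4884, with log2 ratios of -1.99, -1.85, -1.21 and -1.05. Srsf3, the smallest of the family and an export adaptor, was at 158.35, 134.41, 187.17 and 245.4 RPKM in that order, with ratios of -1.47, -1.71, -1.23 and -0.84. Srsf1, the founding member, was at 140.34, 126.85, 208.52 and 170.47 RPKM, with ratios of -1.36, -1.51, -0.79 and -1.08. In the other 23 compounds the log2 ratio of Srsf7 lay between -0.70 and 0.31, of Srsf3 between -0.89 and 0.35 and of Srsf1 between -0.91 and 0.02.

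Hnrnpab was at 151.36 RPKM under Vorinostat, 193.5 under CI-994, 345.78 under BRD6688 and 278.93 under BRD4884, with log2 ratios of -1.92, -1.57, -0.73 and -1.04. Hnrnpa0, an intronless hnRNP gene, was at 34.73 RPKM under Vorinostat, 27.22 under CI-994 and 37.61 under the WEE1 inhibitor MK-1775, with log2 ratios of -1.24, -1.58 and -1.13. Under MK-1775 2.69% of all genes were past 2-fold lower. The other falls outside the HDAC inhibitors were Hnrnph1 under MK-1775 (332.49 RPKM, -1.13) and Srsf9 under GNF-5837, where 5.7% of all genes fell as far. In all, 27 genes had at least 1 fall, and 5 above 5 RPKM had none (Hnrnpk, Srsf10, Hnrnph2, Srsf11 and Hnrnpul2). Hnrnph2 stood higher than in DMSO under Vorinostat, at 157.64 RPKM (0.40 on the log2 scale), which is short of 2-fold.

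Under MK-1775 the median log2 ratio was -0.70 over the 20 hnRNP genes and -0.35 over the 10 SR genes. Under AW00693 the median over the 32 genes was 0.17, and 8 of them lay below DMSO. Under T5985871 it was -0.07. Over all genes tested the median was -0.30 under MK-1775, -0.03 under AW00693 and -0.20 under T5985871. These are values of merged samples and were not tested. In bulk RNA, fewer cells of a type and less RNA per cell cannot be told apart.

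**Figure D2:**
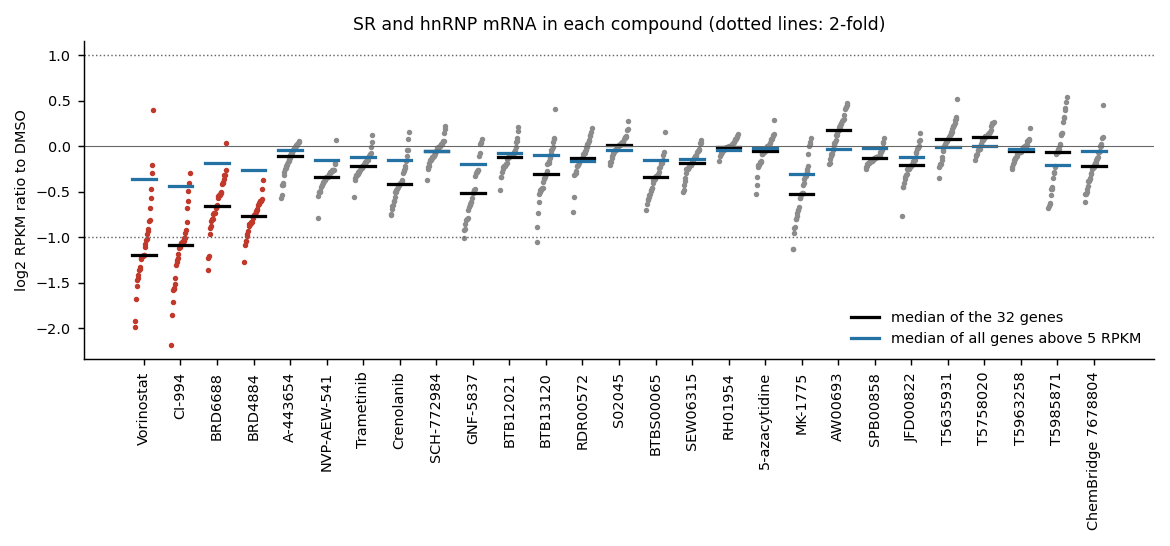
log2 RPKM ratio to DMSO of the 32 genes under each compound, 1 point per gene (red for HDAC inhibitors, grey for the others), with black bars for their median, blue bars for the median of all genes and dotted lines at 2-fold. The median of the 32 genes lies at -1.19 under Vorinostat and -1.09 under CI-994, below that of all genes, and the lowest point is Hnrnpd under CI-994 at -2.18.

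With all compounds pooled, factors of the decay pathway passed 2-fold lower about as often as genes in general. All 16 listed genes of NMD and the exon junction complex were above 5 RPKM in DMSO. Of their 432 pairs with compounds, 17, in 8 genes, were past 2-fold lower (3.94%, beside 3.86% of all pairs) and 1 was past 2-fold higher (0.231%, beside 2.67%). The falls lay under HDAC inhibitors, except those of Magoh, Magohb and Rbm8a under BTB13120. Past 2-fold lower were 3.36% of all genes under BTB13120 and 4.42% to 26.1% under the HDAC inhibitors. Magohb and Magoh, paralogous core subunits of the junction complex, went from 45.18 to 6.12 RPKM (-2.79) and from 101.39 to 21.94 RPKM (-2.18) under CI-994. The core helicase Eif4a3 went from 137.55 to 40.68 RPKM (-1.75) under CI-994 and stood at 217.0 RPKM under T5985871. Smg8, a partner of the kinase that phosphorylates Upf1, rose from 15.95 to 41.47 RPKM (1.35) under T5985871. The summed level of the list was 851.25 RPKM in DMSO, 413.39 to 558.74 under the HDAC inhibitors and 625.75 to 1085.42 under the others.

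Of 10 listed kinases and import factors of SR proteins, 8 were above 5 RPKM in DMSO, and Srpk3 and Dyrk1a were listed at 0. Of 216 pairs 2 were past 2-fold higher (0.926%, beside 2.67% of all pairs) and 3 past 2-fold lower (1.39%, beside 3.86%). Clk1 and Clk3, nuclear kinases of SR proteins, rose under A-443654, from 32.17 to 68.8 RPKM (1.08) and from 38.86 to 79.57 RPKM (1.02). Clk4 stood at 20.71 RPKM under Vorinostat, from 44.09 (-1.07), and was also past 2-fold lower under CI-994. Srpk1, a mainly cytoplasmic kinase of SR proteins, went from 107.24 to 49.72 RPKM (-1.10) under Vorinostat. These lists are described by counts only, since the RPKM values have no replicates.

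The neuroblast markers summed to 1320.61 RPKM in DMSO, 1322.24 to 1533.27 under the HDAC inhibitors and 868.71 to 1901.66 under the others. The markers of other cells summed to 3.86 RPKM in DMSO, 6.88 to 23.43 under the HDAC inhibitors and 2.49 to 10.83 under the others, with Adgre1 and Epcam listed at 0 in DMSO and Col1a1 at 11.67 RPKM under CI-994. Their part in the falls of the SR and hnRNP genes was not tested.

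Changes in the low-inclusion exons were few and fell on a handful of genes. An exon was called changed where its mean PSI lay 10 or more from that in DMSO and where beta distributions of the reads gave that direction a posterior probability above 0.95. Of 413 pairs of an exon and a compound, 12 were called higher, beside 5.79% of all low-inclusion pairs, and 6 lower, beside 2.66%. The calls lay in exons of Hnrnph1, Hnrnpa2b1, Hnrnpr, Hnrnpl and Hnrnpab, all hnRNP genes. The Hnrnph1 exon, whose DMSO libraries differed widely, held 4 of the increases and 3 of the decreases. SR gene exons named below had DMSO means of 0.98 to 5.01 PSI, so a fall of 10 PSI was not possible in them. Called exons other than that of Hnrnpl started at 29.92 to 44.28 PSI. Pairs were not counted by family, and without the balance limit exons of Srsf7 and Tra2a were called too. Over the 12 exons that passed the filters with a DMSO mean below 20, among them the stop-bearing exons of Hnrnpl, Srsf6 and Srsf9 and the 117 nt exon of Srsf11, 1 of 283 pairs was called higher (2.76% of all such pairs) and 0 lower (0.326%). By limma, over fewer pairs, 6 of 250 were higher (2.18% of all pairs in that fit) and 2 lower (0.771%). Without DMSO replicate A the decreases numbered 3. With 1 library for most compounds, a call rests on the reads of that library. A limma p for such a compound takes its spread from the groups with replicates and assumes that the lone library varies as they do, so it was not checked by a replicate.

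The poison exon of Hnrnpl, a repressor that binds CA-rich RNA, was at 4.06, 4.29 and 4.54 PSI in the 3 DMSO libraries (4.30 ± 0.24, SD, n = 3). Over 27 compounds its PSI ran from 3.05 (Trametinib) through a median of 4.65 to 15.08 (MK-1775), with T5985871 second at 14.21. The HDAC inhibitor CI-994 gave 8.69 and 5.53 in its 2 libraries. In the limma fit across all exons the difference of MK-1775, a lone library, from DMSO was 10.78 PSI (SE 1.25, adjusted p = 0.0016). In 16 compounds the exon was above all 3 DMSO libraries and in 7 below them. Such counts, here and for the exons below, reuse the same DMSO libraries for every compound. They were not made over all low-inclusion exons, so they have no background.

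The start-codon exon of Hnrnpr, an hnRNP abundant in neurons, was at 45.01, 44.94 and 42.89 PSI in DMSO (44.3 ± 1.20, SD, n = 3). The 2 Vorinostat libraries gave 59.55 and 59.36, those of CI-994 51.33 and 55.64, of BRD6688 52.79 and 46.92, and of BRD4884 48.23 and 48.58. All 8 libraries of HDAC inhibitors thus lay above the DMSO libraries. How many of all low-inclusion exons did so was not counted. The lowest value was 31.48 under T5985871, followed by 37.73 under AW00693, 38.0 under SPB00858, 38.46 under MK-1775 and 38.85 under T5635931, and the median was 45.4. By limma the difference was 15.18 PSI for Vorinostat (SE 1.93, adjusted p = 0.0115) and -12.80 PSI for the lone T5985871 library (SE 2.43, adjusted p = 0.0112, its spread taken from the replicated groups). For the other HDAC inhibitors the limma difference did not pass after adjustment. It was 9.2 PSI for CI-994 (adjusted p = 0.0715), 5.6 for BRD6688 (adjusted p = 0.397) and 4.1 for BRD4884 (adjusted p = 0.598). Between 865 and 4459 reads lay behind each library's value.

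The coding 141 nt exon of Hnrnpab, a CArG-box and RNA binding protein, was at 34.87, 35.04 and 33.17 PSI in DMSO (34.4 ± 1.03, SD, n = 3). It ran from 23.9 (T5985871) and 24.9 (MK-1775) through a median of 31.46 to 35.79 (SPB00858), below all DMSO libraries in 20 compounds and above them in 3. The difference of the lone T5985871 library was -10.46 PSI by limma (adjusted p = 0.000379, its spread taken from the replicated groups).

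The 73 nt exon of Hnrnpa2b1, which encodes the A2 and B1 proteins that bind RNA and take part in its transport, varied widely. It was at 31.39, 30.74 and 27.62 PSI in DMSO (29.9 ± 2.02, SD, n = 3) and was called higher under 6 compounds. Its values were 49.36 under RDR00572, 46.8 under BRD6688 (48.91 and 44.69), 44.84 under S02045, 44.17 under GNF-5837, 42.34 under BTB12021 and 40.76 under RH01954. By limma the adjusted p was 0.00782 for RDR00572, 0.0365 for BRD6688, 0.0267 for S02045 and 0.0464 for BTB12021, and 0.0711 for GNF-5837 and 0.133 for RH01954. Of these compounds only BRD6688 had replicates. The paper places RDR00572 and BTB12021 in the same class of benzenesulfonamide-related compounds, so the 6 are not all independent. AW00693 was lowest at 19.27 (called lower, limma adjusted p = 0.0915). Vorinostat gave 38.46 and 33.94, and CI-994 gave 31.39 and 31.61.

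The 5′ UTR exon of Hnrnph1, which binds G-rich runs, had the widest range and the thinnest coverage. It was at 50.32, 33.33 and 43.48 PSI in DMSO (42.4 ± 8.55, SD, n = 3), with a median of 82 reads per library. Over 22 compounds, none an HDAC inhibitor, it ran from 28.32 (5-azacytidine) through 40.94 to 91.43 (BTB13120), and NVP-AEW-541 was at 70.21 on 40 reads. It was called higher under 4 compounds and lower under 3, and the spread of its DMSO libraries alone was 8.55 PSI.

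The other low-inclusion exons that passed the filters, several of which carry or follow a stop, had no call. The Srsf2 104 nt exon was at 2.1, 2.46 and 2.34 PSI in DMSO and ran from 0.88 to 8.98 (A-443654) over 26 compounds. The Srsf6 165 nt exon was at 4.22, 4.58 and 6.22 in DMSO and ran from 2.22 (BTB13120) to 9.89 (SEW06315). The Srsf9 358 nt exon was at 1.17, 1.22 and 0.54 in DMSO and ran from 0.265 (BRD6688) to 5.34 (T5985871), above all DMSO libraries in 18 of 24 compounds. The Srsf11 117 nt exon was at 3.83, 3.67 and 2.89 in DMSO and reached 8.76 under Crenolanib, and the 112 nt exon of the same gene, at 1.97, 0.92 and 0.82 in DMSO, reached 3.9 under T5985871. The Srsf9 79 nt exon ranged from 1.86 to 4.27, and the Hnrnpa2b1 36 nt exon from 11.39 (GNF-5837) to 18.41 (RDR00572), around 14, 14.4 and 14.51 in DMSO. The 132 nt exon of Hnrnpd was listed between 33.25 and 33.33 in every condition, on 4013 to 21640 reads per library. That range is narrower than the sampling of reads alone would give, so the value may not measure inclusion. The exon is kept in the counts above.

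**Figure D3:**
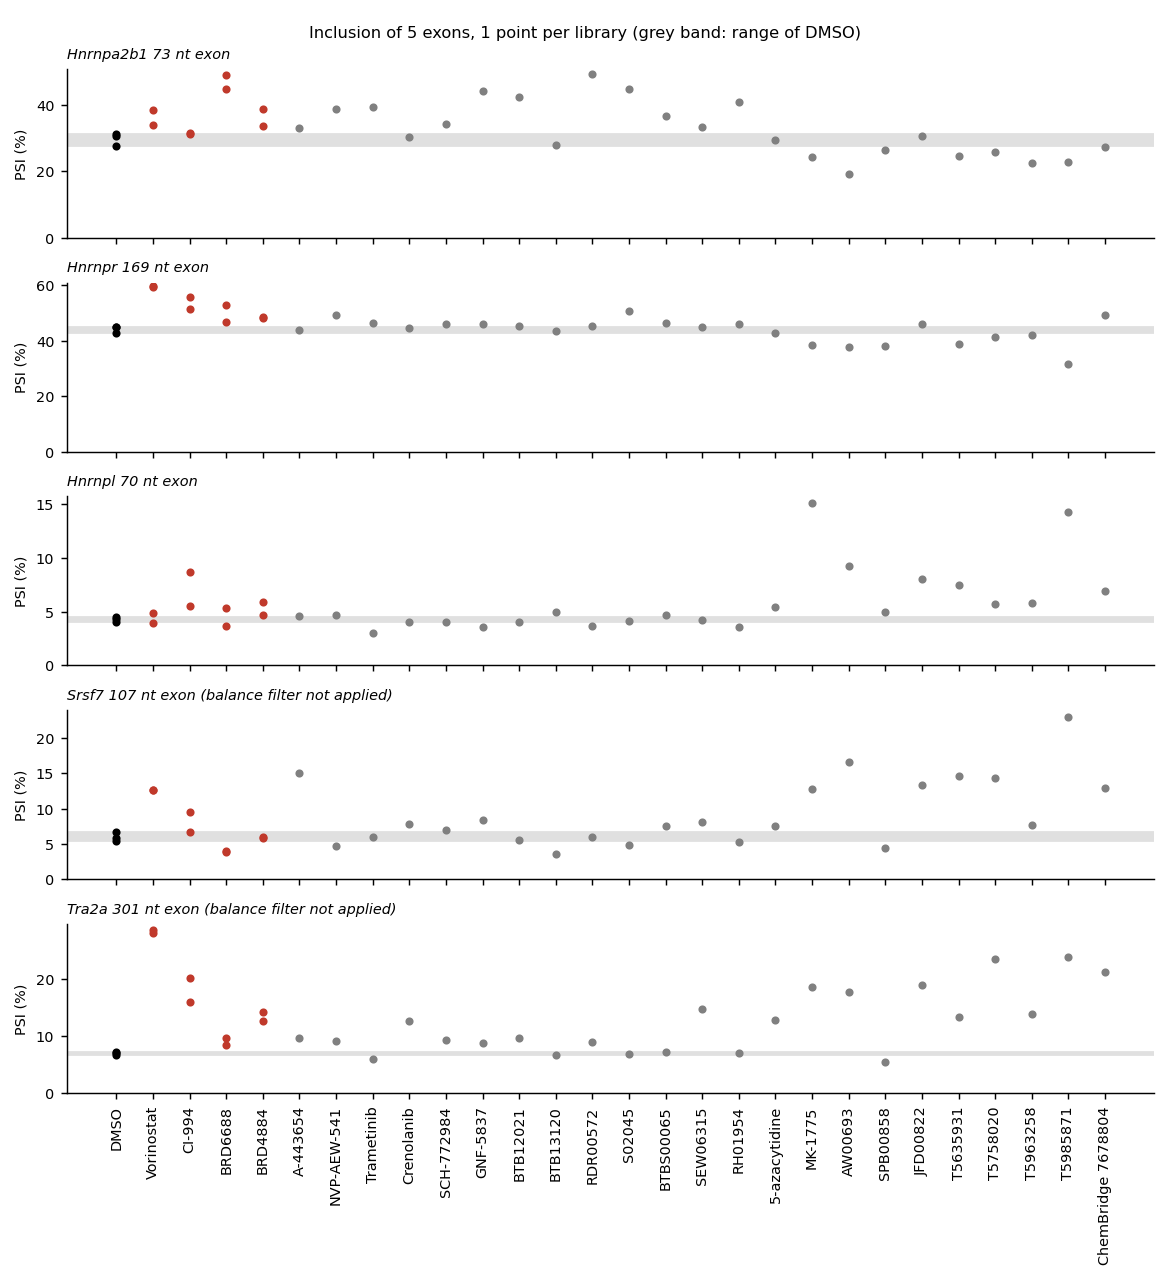
PSI (percent) of 5 exons, 1 point per library, for DMSO (black, with its range as a grey band), HDAC inhibitors (red) and the other compounds (grey). The Hnrnpr exon runs from 31.48 under T5985871 to 59.55 in a Vorinostat library, the Hnrnpl exon stands at 15.08 under MK-1775, and the Srsf7 and Tra2a exons are drawn without the balance limit that they did not pass.

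Several further low-inclusion exons did not pass the limit on junction balance, which asks that the reads on an exon's upstream and downstream junctions be similar. Their values are given here without that limit. The 301 nt exon of Tra2a, an SR-like activator of exon inclusion, passed it in 0 of 34 libraries. It was at 6.65, 6.92 and 7.14 PSI in DMSO (6.90 ± 0.25, SD, n = 3) and above all of them in 21 of 27 compounds. The highest value was 28.27 under Vorinostat (28.08 and 28.46), followed by 23.8 under T5985871, 23.4 under T5758020 and 21.17 under the ChemBridge compound. It met the size and posterior limits under 8 compounds.

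The 107 nt exon of Srsf7 passed the balance limit in 17 of 34 libraries. It was at 5.78, 6.64 and 5.42 PSI in DMSO, and reached 23.02 under T5985871 and 16.64 under AW00693, with 12.72 and 12.67 under Vorinostat and a lowest value of 3.58 under BTB13120. The Hnrnpd 71 nt exon was at 2.27, 1.78 and 1.52 in DMSO and reached 14.37 under T5985871 and 8.32 under MK-1775. The Srsf4 207 nt exon, at 9.24, 10.85 and 8.79 in DMSO, ran from 5.08 (BRD6688) to 17.6 (T5985871) and 17.07 (A-443654). The Srsf4 174 nt exon ran from 3.54 (Vorinostat) to 15.61 (SEW06315) around 10.72, 10.96 and 10.77 in DMSO. The Hnrnpu 51 nt exon reached 20.41 under BTB13120, on a median of 64 reads and with DMSO libraries at 6.98, 2.13 and 11.58. Without the balance limit 24 of 851 pairs were called higher, beside 2.94% of all pairs, and 7 lower, beside 1.31%. Over the 27 exons that varied, T5985871 gave the highest value in 6 and lay above all DMSO libraries in 17, a count made after the values were seen. A-443654, SEW06315 and T5758020 lay above all DMSO libraries in 16 each, so the 17 does not set T5985871 apart. By highest value the next compound was SEW06315, with 3 exons. T5985871 was among the 3 highest in 12 exons and A-443654, the next, in 9. Such ranks were not taken over all low-inclusion exons. With the balance limit, 265 of all 2367 low-inclusion exons tested under T5985871 were called higher.

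Retention of introns in these genes was mostly low and changed in few pairs. Of 3180 pairs of an intron and a compound, 3 were called higher (0.464% of all intron pairs) and 6 lower (0.188%). The decreases rest on the DMSO libraries. Without DMSO replicate A or B they numbered 2, and without DMSO replicate C 10. By limma 1 of 284 pairs was higher (0.44% of all) and 1 lower (0.016%).

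The 1228 nt intron of Hnrnpl was at 1.19, 0.97 and 0.0 PSI in DMSO and at 10.96 under T5985871, with a median of 1.53. Its difference was 10.24 PSI by limma (SE 1.30, adjusted p = 0.00321), from 1 library. The 117 nt intron of Hnrnpm, a protein that binds GU-rich RNA, was retained at 44.89, 48.58 and 48.39 PSI in DMSO and ran from 32.89 (A-443654) to 53.34 (RH01954). The A-443654 difference was -14.4 PSI by limma (SE 1.77, adjusted p = 0.017), also from 1 library with its spread taken from the replicated groups.

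The other calls had wider error. The 1892 nt intron of Hnrnph2 was at 3.46, 5.32 and 7.58 PSI in DMSO and at 15.53 under CI-994 (limma adjusted p = 0.0651), and the 155 nt intron of the same gene, at 3.72, 1.04 and 2.7 in DMSO, was at 13.4 under BTB12021. The 87 nt intron of Hnrnph3 was at 17.19, 16.36 and 9.09 PSI in DMSO, on 15 to 75 reads per library. It was called lower under 5 compounds, at 1.62 under BRD6688, 3.12 under RH01954, 3.61 under AW00693, 3.7 under T5758020 and 4.11 under S02045, and its highest value was 25 under MK-1775.

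Among the introns of widest range, several were highest under Vorinostat or CI-994 without being called with the balance limit. How many of all introns were so was not counted. The Hnrnph3 430 nt intron was at 4.66, 4.53 and 4.09 PSI in DMSO and 11.72 under CI-994, and its 185 nt intron was at 3.45, 1.93 and 3.95 in DMSO and 6.58 under Vorinostat. The Hnrnpl 3108 nt intron, which contains the 70 nt poison exon, was at 6.84, 5.89 and 5.89 in DMSO and 12.8 under CI-994. The Hnrnpd 1181 nt intron, which contains the 71 nt exon, was at 3.76, 1.64 and 3.83 in DMSO and 9.755 under Vorinostat. The Srsf2 236 nt intron was at 1.95, 0.0 and 1.49 in DMSO and 6.25 under Vorinostat. By contrast the Hnrnpl 811 nt intron was highest under MK-1775, at 10.8 from 4.53, 4.99 and 4.59, and the Srsf7 486 nt intron did not exceed 3.29. Without the balance limit 7 of 4021 pairs were called higher (0.76% of all) and 6 lower (0.33%). The additional increases included the Hnrnpl 111 nt intron, at 53.76 PSI under T5985871 from a DMSO mean of 39.2. They also included, under Vorinostat, the Srsf7 1377 nt intron, at 23.07 from 11.62, and the Hnrnpu 794 nt intron, at 19.23 from 6.26. The Hnrnpd 1181 nt intron was called higher under CI-994, at 13.65 from 3.08.

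**Figure D4:**
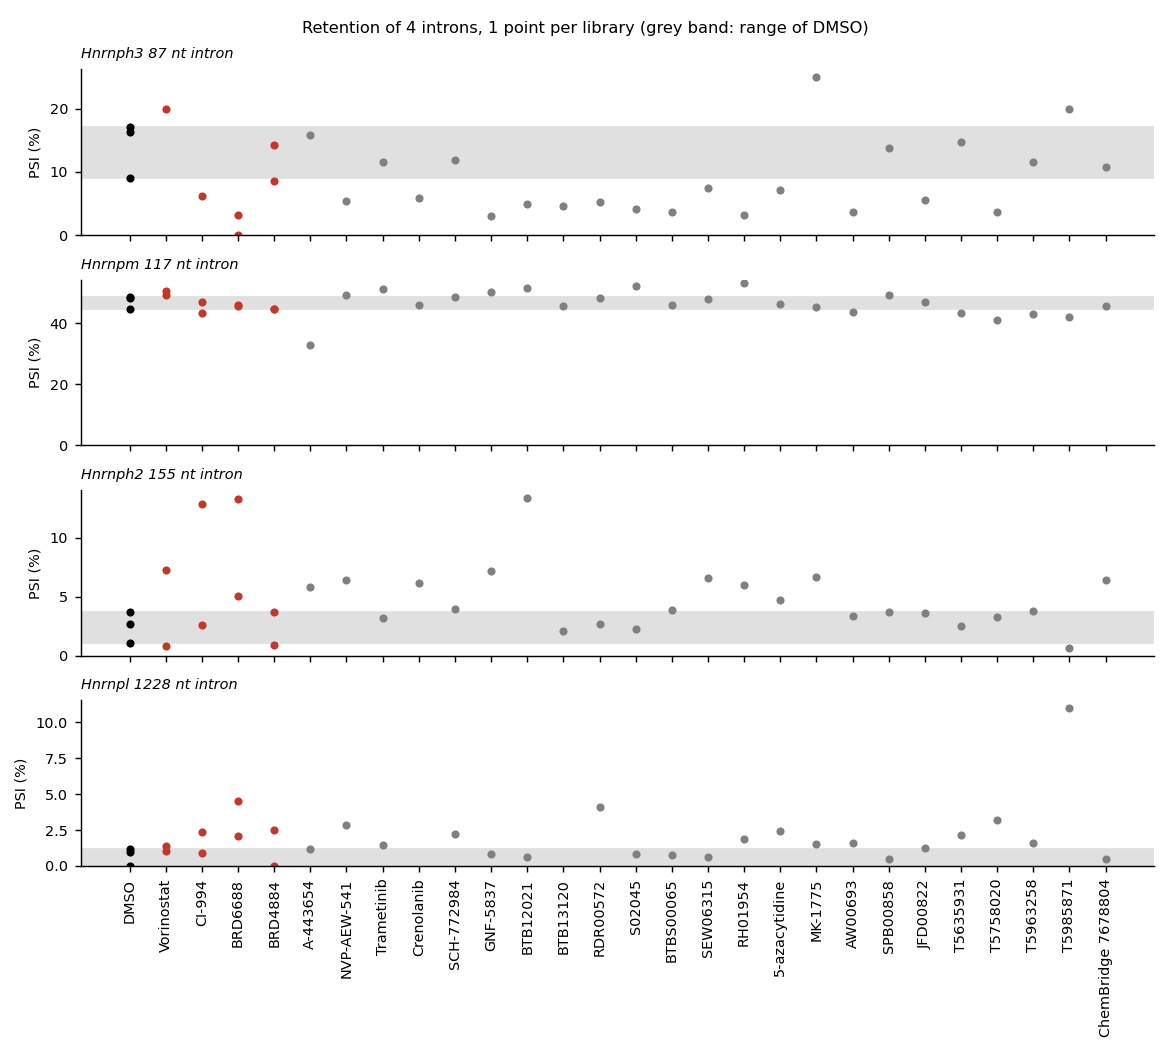
Retention (PSI, percent) of 4 introns, 1 point per library that passed the filters, for DMSO (black, with its range as a grey band), HDAC inhibitors (red) and the other compounds (grey). The Hnrnpm intron drops to 32.89 under A-443654, the Hnrnpl intron stands at 10.96 under T5985871, and the DMSO libraries of the Hnrnph3 intron span 9.09 to 17.19.

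Inclusion was then set against mRNA across the compounds, 1 point per compound. The points share the cell line and the same DMSO values in every ratio, and the HDAC inhibitors lie apart in mRNA, so each correlation is also given over the 23 other compounds. The study chose the compounds as activators or inhibitors of microexons, which are very short exons, and some share a chemical class. A permutation test treats compounds as exchangeable, so its p-values do not allow for such groups. Events of genes above 5 RPKM whose PSI varied by at least 10 were tested, 1076 exons and 5320 introns in the whole table, with a permutation test of Pearson's r and Benjamini-Hochberg adjustment over that whole class. Of the 5 exons tested here, 1 was related to lower mRNA (4.46% of all exons were) and 0 to higher mRNA (2.42%), and 1 had an unadjusted p under 0.05. Of the 5 introns, 0 were related to lower mRNA (0.414%) and 0 to higher (0.113%), and 1 had an unadjusted p under 0.05.

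The exon related to lower mRNA was the start-codon exon of Hnrnpr. Where its PSI was higher, Hnrnpr mRNA was lower: at 59.46 PSI under Vorinostat the gene was at 65.41 RPKM (log2 ratio -1.35), and at 31.48 PSI under T5985871 it was at 243.99 RPKM (0.54). CI-994 gave 69.09 RPKM (-1.27), BRD4884 92.63 (-0.85), BRD6688 113.18 (-0.56) and AW00693, at 37.73 PSI, 228.66 (0.45). Over 27 compounds Pearson's r was -0.82 (permutation p = 1e-05, the smallest that 100000 resamples can give, adjusted p = 0.00359) and Spearman's rho was -0.67 (permutation p = 0.0002, adjusted p = 0.0161). Without the compounds farthest from the median PSI, Vorinostat and T5985871, r was -0.71. Over the 23 compounds that are not HDAC inhibitors r was -0.70 (permutation p = 0.00024, adjusted p = 0.0181) and rho -0.52 (permutation p = 0.013). With ratios taken relative to the median gene, r was -0.85 (adjusted p = 0.00269). In that set of 23 compounds 1.99% of all exons were related to lower mRNA and 1.42% to higher, and of all introns 0.0192% and 0.0384%. The points of the 4 HDAC inhibitors lay at the low-mRNA end and those of T5985871 and AW00693 at the high-mRNA end. In the study the former are microexon activators and the latter microexon inhibitors.

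**Figure D5:**
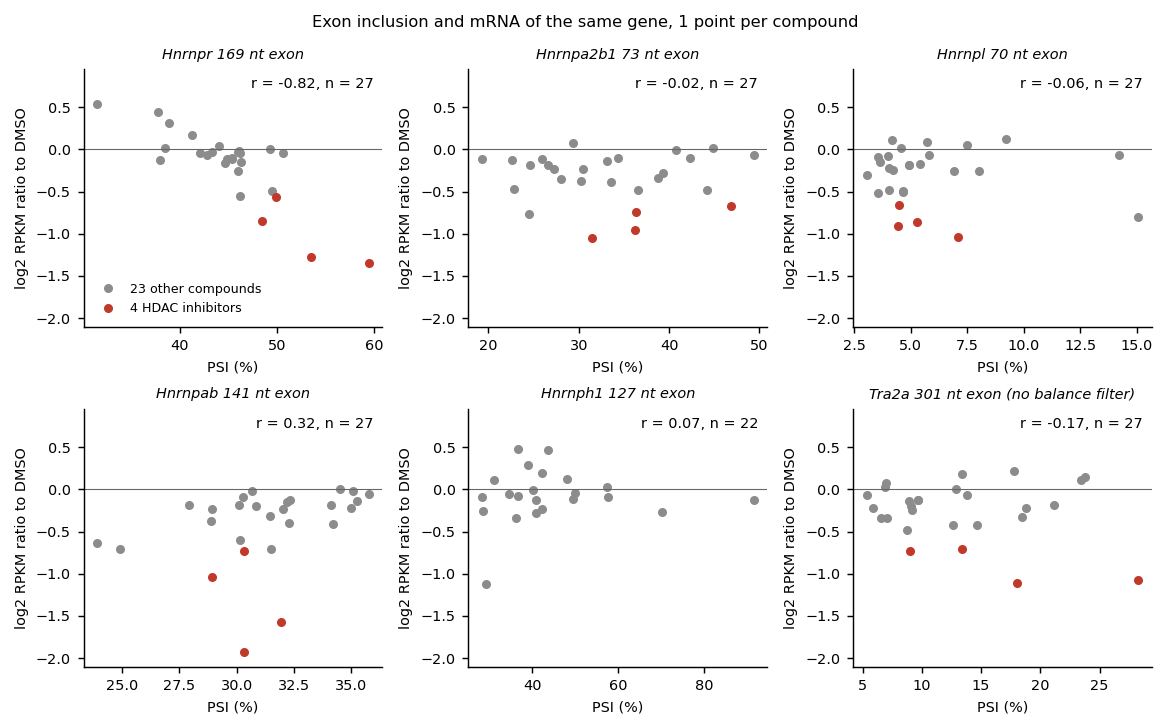
PSI (percent) of 6 exons against the log2 RPKM ratio of the same gene to DMSO, 1 point per compound, red for the 4 HDAC inhibitors and grey for the 23 others. The Hnrnpr points fall from upper left to lower right (r = -0.82), those of Hnrnpa2b1 show no slope (r = -0.02), and the Tra2a exon is drawn without the balance limit.

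The Hnrnpl 70 nt exon was the only exon with an annotated stop in the tested class. Its r was -0.06 (permutation p = 0.794, adjusted p = 0.932), rho was 0.09 (permutation p = 0.638), and r over 23 compounds was -0.14. Without MK-1775 and T5985871, the compounds with the highest PSI, r was 0.12. The Srsf2, Srsf6, Srsf9 and Srsf11 exons varied by less than 10 PSI and were not tested.

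For the Hnrnpa2b1 73 nt exon r was -0.02 (permutation p = 0.918, adjusted p = 0.976), rho was 0.03, and r over 23 compounds was 0.19. For the Hnrnph1 exon r was 0.07 over 22 compounds (permutation p = 0.737, adjusted p = 0.908). The Hnrnpab exon had r = 0.32 (permutation p = 0.1, adjusted p = 0.321) and rho = 0.46 (permutation p = 0.0162, adjusted p = 0.135). Over 23 compounds its r was 0.58 (permutation p = 0.00366, adjusted p = 0.0773), short of the threshold after adjustment.

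Without the balance limit, an alternative chosen after the data were seen, 1 of 12 exons was related to lower mRNA (4.0% of all exons) and 0 to higher (2.58%), and of 14 introns 0 to lower (1.48%) and 0 to higher (0.625%), where 5 had an unadjusted p under 0.05. The exon was again that of Hnrnpr. The 5 introns all had a negative r. It was -0.57 for the Hnrnpd 1181 nt and Hnrnph3 430 nt introns and -0.40 for the Hnrnph3 87 nt intron. The Srsf7 874 nt and 1377 nt introns had -0.44 each. Over 23 compounds r was -0.21 (Hnrnpd), 0.04 (Hnrnph3 430 nt), -0.53 (Hnrnph3 87 nt), -0.35 (Srsf7 874 nt) and -0.28 (Srsf7 1377 nt). For the Tra2a exon r was -0.17 (permutation p = 0.408, adjusted p = 0.715) and 0.29 over 23 compounds, and for the Srsf7 exon r was 0.19 (permutation p = 0.355, adjusted p = 0.669). For the Hnrnpd 71 nt exon r was -0.15, for the Srsf4 207 nt exon 0.11 and for the Hnrnpu exon 0.03.

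Of the introns, the Hnrnph3 87 nt intron had r = -0.40 (permutation p = 0.0382, adjusted p = 0.351) and r = -0.53 over 23 compounds (permutation p = 0.0102, adjusted p = 0.288). The r was -0.26 and -0.13 for the 155 nt and 1892 nt introns of Hnrnph2, 0.15 for the Hnrnpl 1228 nt intron and -0.14 for the Hnrnpm intron. With a required range of 5 PSI in place of 10, the Hnrnph3 185 nt intron was related to lower mRNA (r = -0.78, permutation p = 4e-05, adjusted p = 0.0377). Its relation rested on Vorinostat and CI-994: without them r was -0.45, and over 23 compounds -0.36 (permutation p = 0.0898).

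BRD4884 and BRD6688 were given at the same dose and time, and they were the only pair of compounds compared directly. Exons at any level of inclusion were taken here, not only low-inclusion ones, where PSI varied by at least 5 over the libraries. By limma 0 of 21 exons of these genes differed between them after adjustment over all exons (0.0309% of all 16158 did), and 0 of 11 introns (0.0% of 21467), with 3 exons and 3 introns at an unadjusted p under 0.05. The Hnrnpa2b1 73 nt exon was at 33.66 and 38.9 PSI under BRD4884 and at 48.91 and 44.69 under BRD6688. The difference was -10.5 PSI (95% interval -16.5 to -4.57, limma adjusted p = 0.35), so the libraries did not overlap but the difference did not pass. The Srsf9 358 nt exon was at 2.38 PSI under BRD4884 and 0.265 under BRD6688 (difference 2.12, 95% interval 0.71 to 3.52, limma adjusted p = 0.491). The Hnrnph3 87 nt intron was at 11.43 PSI under BRD4884 and 1.615 under BRD6688 (difference 9.82, 95% interval 0.64 to 19, limma adjusted p = 0.989). For the Hnrnpr exon the difference was -1.45 PSI (SE 2.11, limma adjusted p = 1). These intervals do not show that the compounds act alike.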

How the data were processed

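PolyA RNA was sequenced from 34 libraries of N2A cells. The deposited gene values are RPKM, merged by the authors to 1 value per condition with replicates pooled. The submitters' processing notes name Salmon 0.10.2, edgeR and mm9. Splicing was quantified by the authors with vast-tools as percent spliced in or retained (PSI, percent) per library, deposited with quality strings (an "other" unit) that hold read counts and balance scores. The authors' fold change, p-value and false discovery columns and their table of splicing differences were not used, nor were alternative splice-site events.

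Members, lists and tests were chosen with earlier results of these data known. Coverage and balance limits followed the study's methods and had to hold in at least 50% of a group's libraries, and introns needed 15 reads and a balance p above 0.05. Calls used beta distributions of reads (prior 1, 2000 draws), a change of 10 PSI and a posterior of 0.95. RPKM ratios had 0.5 added, and genes needed more than 5 RPKM in DMSO or the compound. Relations used 100000 permutations, two-sided. Genes that were not of these families kept the p from the first 2000 resamples where it was above 0.25. PSI differences were tested with limma 3.58.1 (R 4.3.3), all 34 libraries in 1 fit, with Benjamini-Hochberg adjustment. Python 3.11.15, numpy 2.4.6, pandas 2.3.3, SciPy 1.17.1 and matplotlib 3.10.9 were used. The tests were tested on simulated data. Named were all genes above 5 RPKM, those past 2-fold in most compounds, the exons (up to 15) and introns (up to 12) of widest PSI range, and the 4 pathway genes of widest range per list. Replicate labels do not say whether libraries came from separate cultures, so p-values measure only the spread between these libraries.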

Additional observations from a re-analysis of the deposited data

How the results depend on the processing

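Of 104 alternatives over 11 results, 81 gave values within 1.5 times those reported and 23 did not. Ratios relative to the median gene gave 20 mRNA falls (2.31%, beside 2.25% of all pairs) in place of 56, and rises stayed at 0. A limit of 15 PSI gave 6 exon increases in place of 12, 0 exon decreases in place of 6, 0 intron increases in place of 3 and 0 intron decreases in place of 6. Without the balance limit there were 24 exon increases and 7 intron increases, and with at least 50 reads 3 intron decreases. Restricted to exons with a DMSO mean below 20, there was 1 increase and 0 decreases. By limma with no replicate block there were 6 exon increases, 2 exon decreases, 1 intron increase and 1 intron decrease, over fewer events, and with the replicate block 1, 2, 0 and 0, beside 1.2%, 0.39%, 0.144% and 0.00333% of all pairs. The letters of replicates did not pair the libraries: correlations of same-letter deviations lay between -0.019 and 0.027 for exons and between -0.049 and 0.013 for introns. Leaving out 1 library at a time gave 12 to 14 exon increases, 3 (without DMSO A) to 8 exon decreases, 2 to 4 intron increases, and 2 (without DMSO A or B) to 10 (without DMSO C) intron decreases. A range of 5 PSI gave 1 intron related to lower mRNA in place of 0. The exon related to lower mRNA and the comparison of BRD4884 with BRD6688 kept their counts of 1 and 0 in each alternative tried, and where that comparison left out a library, the lone one was assumed to vary like the others. Relations without the balance limit were chosen after seeing the data. Merged RPKM carries no replicate error, 23 compounds had 1 library, and the Hnrnph1 exon and the Hnrnph3 87 nt intron had few reads, so differences there may be missed.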
